A study of Homo sapiens with 35 samples.

Results

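PAPLN, DAZL, MPP1 and TES are 4 of the 58581 genes counted in a time course of human embryonic stem cells. They were chosen by their measured levels at 48 h, which had moved opposite ways from the starting cells in 2 media, one that drives mesendoderm formation and one that lacks the growth factors. PAPLN and DAZL were lower in the first medium and higher in the second, and MPP1 and TES were the reverse. The cells are H9, an established embryonic stem cell line grown in E8 medium on Matrigel, and all groups share this origin. The group t0 was taken at the start (3 libraries). BA is E6 medium plus 2 ligands, BMP4 and Activin A, each at 40 ng/mL (12 libraries), E6 alone is the control for spontaneous differentiation (10 libraries), and E8 is the control that keeps cells pluripotent (10 libraries). Poly(A) RNA was sequenced every 6 h up to 48 h. Groups at t0, BA 24 h, BA 48 h, E6 48 h and E8 48 h have 3 replicates, and the other 20 groups have 1 library. Whether the replicates come from separate cultures is not given in the labels, so p-values measure the spread between these libraries, which may be technical.

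BMP4 and Activin A are secreted ligands of the TGF-beta superfamily. They bind paired serine-threonine kinase receptors and act on genes through SMAD transcription factors, BMP4 and Activin A through different SMADs, and in pluripotent cells both together push towards primitive streak, the source of mesoderm and endoderm. E6 is E8 without the FGF and TGF-beta ligands that hold cells pluripotent, and human embryonic stem cells that lose those signals without added BMP tend towards neuroectoderm. PAPLN encodes papilin, a secreted glycoprotein of the extracellular matrix that is related to the ADAMTS proteases but has no protease domain. DAZL encodes an RNA-binding protein that controls translation in germ cells. MPP1 encodes a membrane-associated guanylate kinase scaffold, best known from the red blood cell, where it ties membrane glycoproteins to the spectrin-actin skeleton. TES encodes testin, a LIM domain protein of focal adhesions and cell contacts that binds zyxin and the actin regulator Mena.

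The genes lie on 4 chromosomes (GRCh38, GENCODE release 29). PAPLN spans chr14:73237497-73274640 on the plus strand, DAZL chr3:16586792-16670306 on the minus strand, MPP1 chrX:154778684-154821007 on the minus strand and TES chr7:116210493-116258783 on the plus strand. PAPLN and TES each overlap 2 annotated antisense genes, and since strand-specific counting is not stated, their reads cannot be told apart from antisense reads. DAZL overlaps no other annotated gene and MPP1 overlaps 1 processed pseudogene. Their promoters are shown because BMP4 and Activin A act through SMADs, so that elements shared or not shared by the 4 genes can be read in these windows. Each sequence is the RefSeq window (GRCh38.p14) from 250 bases before to 50 bases after the first listed transcript start, on the gene's own strand, 300 bases long. The annotated DAZL and MPP1 genes extend upstream of these windows, so other start sites of theirs are not covered. PAPLN, DAZL and TES have 2 listed windows each, of which only the first was searched. The windows are chr14:73237256-73237555 (plus) for PAPLN, chr3:16605374-16605673 (minus) for DAZL, chrX:154805436-154805735 (minus) for MPP1 and chr7:116210289-116210588 (plus) for TES. Capitals mark matches to the GC-rich BMP-SMAD element GGCGCC, or to the GATA element AGATAA, which reads TTATCT on the other strand.
PAPLN: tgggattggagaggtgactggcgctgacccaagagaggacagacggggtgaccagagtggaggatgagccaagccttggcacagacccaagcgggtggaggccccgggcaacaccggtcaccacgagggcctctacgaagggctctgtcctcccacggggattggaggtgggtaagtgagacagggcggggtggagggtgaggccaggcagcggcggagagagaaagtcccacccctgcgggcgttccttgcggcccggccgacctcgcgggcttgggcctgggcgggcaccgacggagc
DAZL: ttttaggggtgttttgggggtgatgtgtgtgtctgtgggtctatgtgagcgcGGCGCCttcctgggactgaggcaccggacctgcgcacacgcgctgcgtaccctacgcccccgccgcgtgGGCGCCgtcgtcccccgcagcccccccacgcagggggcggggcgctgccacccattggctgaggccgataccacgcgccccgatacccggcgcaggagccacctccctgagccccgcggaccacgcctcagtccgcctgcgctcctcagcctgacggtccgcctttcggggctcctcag
MPP1: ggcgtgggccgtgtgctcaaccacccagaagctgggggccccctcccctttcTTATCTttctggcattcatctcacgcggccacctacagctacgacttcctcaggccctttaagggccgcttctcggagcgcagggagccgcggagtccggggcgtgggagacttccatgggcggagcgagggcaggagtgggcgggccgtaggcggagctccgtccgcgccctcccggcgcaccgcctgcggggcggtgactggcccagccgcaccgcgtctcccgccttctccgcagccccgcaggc
TES: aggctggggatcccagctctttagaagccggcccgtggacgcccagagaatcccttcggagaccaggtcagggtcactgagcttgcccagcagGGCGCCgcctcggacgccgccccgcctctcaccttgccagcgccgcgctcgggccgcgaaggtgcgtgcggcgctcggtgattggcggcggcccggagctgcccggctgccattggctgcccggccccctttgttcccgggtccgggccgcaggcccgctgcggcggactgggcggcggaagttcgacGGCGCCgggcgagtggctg

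All 4 windows hold more CpG dinucleotides than the median window, PAPLN by the least. Fewer CpG were found in 60.5% of windows than in PAPLN, 82.8% than in DAZL, 79.3% than in MPP1 and 90.1% than in TES. They hold 21 in PAPLN, 33 in DAZL, 31 in MPP1 and 38 in TES, against a median of 14 over 35116 RefSeq windows of the same length. Their GC content is 68.7%, 71.7%, 71.3% and 74.3% in the same order, against a median of 58.7%. The element GGCGCC occurs at 2 places each in the windows of DAZL, which was low in BA, and of TES, which was high in BA. Its part in the changes was not tested. It is absent from the windows shown for PAPLN and MPP1. Of all windows, which have fewer CpG at the median than these 4, 19.2% hold it. MPP1 alone has the GATA element, at position -198 from its start, which 10.3% of windows hold. Also searched, on both strands, were the palindromic SMAD element GTCTAGAC (0.202% of windows), the TCF-LEF element CTTTGAT (2.62%), the T-box element AGGTGTGA (0.98%) and the FOXH1 element AATCCACA (0.817%), and none of these 4 was found in any of the 4 windows. GGCGCC and GTCTAGAC are palindromes that read the same on both strands, and no match overlaps another. The GATA element was added to the search after the sequences had been seen.

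Levels are in CPM, which are read counts scaled to a common library size with TMM factors. Library totals ran from 11793453 to 37191969 counts, the lowest in E6 at 42 h. Replicate 1 and the single libraries (25 libraries) stood apart from replicates 2 and 3 (10 libraries), at 0.652 to 1.16 against -0.0811 to 0.0742 along the axis between the 2 sets. As the axis is drawn between them, part of this gap is built in. In every replicated group, counts of replicates 2 and 3 also differed less from each other than from replicate 1. At t0 the chi-square per degree of freedom was 12.0 for replicates 2 and 3, and 207 for replicates 1 and 2. Differences between replicated groups are therefore also given within replicate numbers. Of the hourly libraries, 3 had 18.6 to 25.1 CPM of the epithelial cadherin gene CDH1 and the others 98.4 to 199 CPM. These 3 are BA 42 h, E8 18 h and E8 36 h, and the hourly tests were repeated without them. The 6 pluripotency markers POU5F1, SOX2, NANOG, DPPA4, L1TD1 and LIN28A reached at least 1 CPM in the 5 groups with replicates. They also reached it in E6 at 42 h and in the pooled 6 to 36 h libraries of each medium. For BA and E8 at 42 h this is not given. The bar was also met in BA 48 h, where primitive streak markers summed to 107 to 1876 CPM. It therefore cannot show which cell type a library holds. Per kilobase of annotated exon, the level at t0 was 13.7 CPM for TES, 2.03 for MPP1, 0.647 for PAPLN and 0.264 for DAZL, so the 4 genes span a wide range of abundance.

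At 48 h PAPLN, the matrix glycoprotein gene, gave the widest split of the 4. It measured 6.72, 3.91 and 4.32 CPM in t0 replicates 1, 2 and 3, then 0.852, 1.37 and 1.30 CPM in BA and 74.7, 33.8 and 39.7 CPM in E6. Every BA library lay below every t0 library and every E6 library above, and E8 at 8.24, 4.65 and 4.57 CPM overlapped t0. The edgeR log2 difference from t0 was -2.02 in BA and 3.30 in E6, and BA and E6 differed 39.9-fold. Within replicates 1, 2 and 3 the BA to E6 difference was -5.35, -3.88 and -4.14 on the log2(CPM + 1) scale. As these libraries chose the gene, these values and the next 3 sets are descriptions without a test.

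DAZL, the germ cell RNA-binding protein gene, showed the same order at a far lower level. Its 3 libraries measured 1.44, 0.673 and 0.766 CPM at t0, 0.0655, 0.195 and 0.121 CPM in BA and 5.17, 2.49 and 3.10 CPM in E6. Read numbers behind these values were 27, 21 and 22 at t0, 1, 6 and 4 in BA and 92, 88 and 108 in E6, so the BA level has little precision. The 3 groups did not overlap. The log2 difference from t0 was -2.74 in BA and 1.90 in E6, and E6 stood 24.9-fold above BA. Within replicates 1, 2 and 3, BA minus E6 was -2.53, -1.55 and -1.87 on the log2(CPM + 1) scale. Unlike PAPLN, DAZL also stood below t0 in E8, at 0.461, 0.225 and 0.238 CPM.

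MPP1, the membrane scaffold gene, ran the other way. It measured 13.3, 10.1 and 9.54 CPM at t0, 34.6, 19.9 and 20.97 CPM in BA, 5.17, 4.92 and 3.56 CPM in E6 and 8.93, 12.5 and 13.8 CPM in E8. The BA libraries were all above t0 and the E6 libraries all below it, with E8 overlapping t0. Its log2 difference from t0 was 1.24 in BA and -1.26 in E6, nearly the same size in both directions, and BA stood 5.66-fold above E6.

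TES, the focal adhesion gene, was the most abundant member and had the smallest split. It measured 66.3, 51.3 and 58.8 CPM at t0, 98.5, 126 and 143 CPM in BA, 38.4, 28.98 and 26.3 CPM in E6 and 69.3, 60.6 and 67.8 CPM in E8. Again BA was above t0 and E6 below it in every library, and E8 overlapped t0. The log2 difference was 1.11 in BA and -0.91 in E6, a 4.06-fold gap between the media. Within replicates 1, 2 and 3, BA minus E6 was 1.34, 2.09 and 2.40 for TES and 2.53, 1.82 and 2.27 for MPP1 on the log2(CPM + 1) scale.

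**Figure D1:**
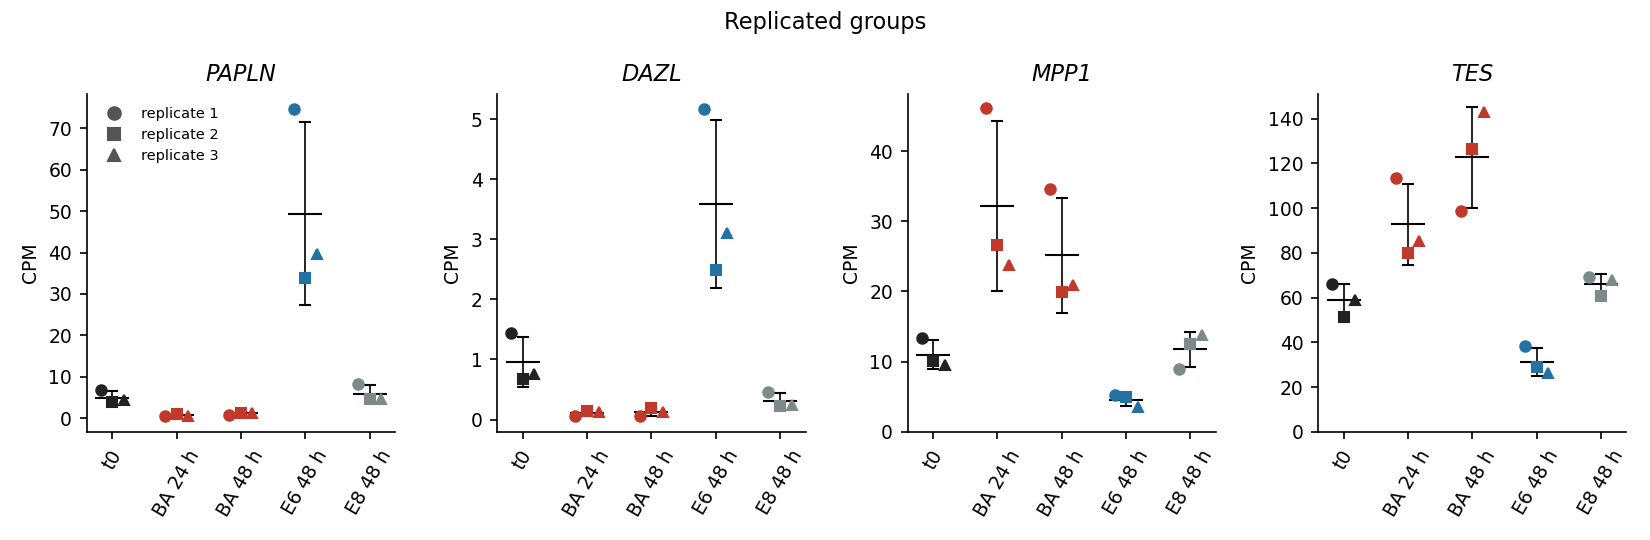
Level in CPM (linear axis from 0) of the 4 genes in the 5 groups with replicates. Circles, squares and triangles are replicates 1, 2 and 3, and the bars show the mean and SD of 3 libraries. E6 at 48 h is the highest group for PAPLN (49.4 CPM) and DAZL (3.59 CPM) and the lowest for MPP1 (4.55 CPM) and TES (31.2 CPM).

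Ordered by their means over 3 libraries, PAPLN and DAZL had E6 48 h at the top and both BA groups at the bottom, and MPP1 and TES had both BA groups at the top and E6 48 h at the bottom. PAPLN was highest in E6 48 h (49.4 ± 22.1 CPM, SD, n = 3), followed by E8 48 h (5.82 ± 2.10), t0 (4.98 ± 1.52), BA 48 h (1.17 ± 0.280) and BA 24 h (0.725 ± 0.276). For DAZL the order was E6 48 h (3.59 ± 1.40 CPM), t0 (0.959 ± 0.418), E8 48 h (0.308 ± 0.132), BA 48 h (0.127 ± 0.0650) and BA 24 h (0.108 ± 0.0492). MPP1 was highest in BA 24 h (32.2 ± 12.1 CPM), then BA 48 h (25.1 ± 8.21), E8 48 h (11.7 ± 2.52), t0 (10.98 ± 2.05) and E6 48 h (4.55 ± 0.866). TES ran from BA 48 h (123 ± 22.5 CPM) and BA 24 h (92.9 ± 18.1) through E8 48 h (65.9 ± 4.66) and t0 (58.8 ± 7.45) to E6 48 h (31.2 ± 6.39). Neighbours in these orders did not overlap in their libraries, except BA 24 h with BA 48 h in all 4 genes and E8 48 h with t0 in PAPLN, MPP1 and TES. Pairs among t0, BA 48 h and E6 48 h chose the genes, so a lack of overlap there is no test. For E8 48 h with t0, 18.6% of all genes tested did not overlap, and for the other neighbouring pairs that share was not computed.

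By edgeR calls (Benjamini-Hochberg adjusted p below 0.05), 6 of 21554 tested genes (0.0278%) moved one way in BA and the other way in E6 between t0 and 48 h, and differed between those media. The 4 members are among them because that rule chose them. The single comparisons called 6.37% of genes for BA with t0, 3.88% for E6 with t0 and 3.52% for BA with E6. The other 2 genes moved as MPP1 and TES did. BAMBI, which encodes a decoy receptor that dampens BMP and Activin signals, measured 19.4 ± 3.94 CPM at t0, 316 ± 30.0 CPM in BA and 9.73 ± 0.325 CPM in E6. OR52A1, an olfactory receptor gene, measured 0.372 ± 0.194, 2.40 ± 0.325 and 0.0187 ± 0.0324 CPM in the same groups, the last from 1 read in all. DAZL and MPP1 sat near the limit of the rule and PAPLN farther inside it: the largest of the 3 adjusted p-values was 0.0110 for PAPLN, 0.0252 for TES, 0.0416 for DAZL and 0.0445 for MPP1. The nearest genes outside it, ALG1L7P, LUZP2 and NECAB2, had 0.0514, 0.0556 and 0.0561. With the replicate block, 209 genes (0.97%) met the rule, 126 of them higher in BA, and all 4 members were included. Leaving out 1 of the 15 libraries gave 1 to 22 genes: PAPLN met the rule in 15 of 15 such fits, TES in 6, DAZL in 4 and MPP1 in 2.

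**Figure D2:**
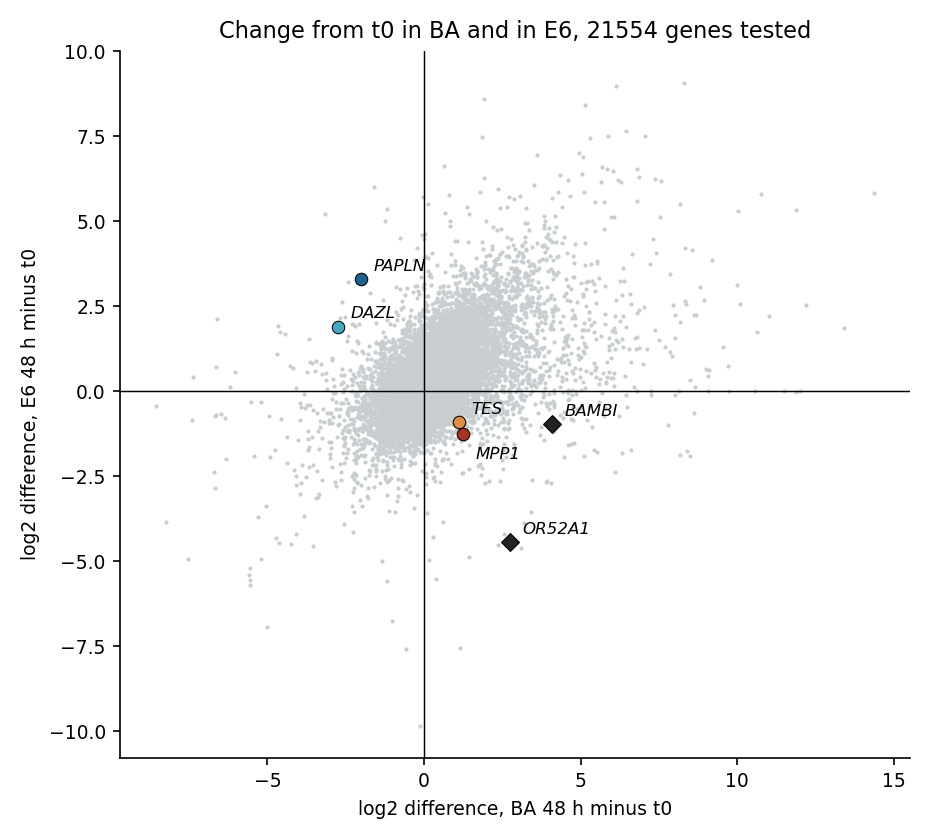
Each grey point is 1 of 21554 genes, with the log2 difference of BA 48 h from t0 on the horizontal axis and of E6 48 h from t0 on the vertical axis. Large circles are the 4 members and diamonds are BAMBI and OR52A1, and PAPLN and DAZL lie at the upper left while the other 4 lie in the lower right of the axes.

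The comparison of BA 24 h with t0 was not used to choose the genes, although its reference t0 was. The BA 24 h libraries also shared the fit of 15 libraries that gave the calls of the rule. This test is therefore not independent of the choice. After 24 h in BA, PAPLN and DAZL had fallen and MPP1 had risen, while TES did not pass the test. PAPLN measured 0.586, 1.04 and 0.545 CPM in BA replicates 1, 2 and 3 and fell by 2.75 ± 0.40 (SE) on the log2 scale from t0 (adjusted p = 0.00516, edgeR). DAZL measured 0.0533, 0.149 and 0.121 CPM, from 1, 5 and 4 reads, and fell by 3.01 ± 0.52 (adjusted p = 0.0140, edgeR). In both genes the BA 24 h libraries overlapped those of BA 48 h. Within replicates 1, 2 and 3, PAPLN was higher at 48 h than at 24 h in BA, by 0.22, 0.21 and 0.57 on the log2(CPM + 1) scale. For DAZL this difference was 0.017, 0.057 and -0.00013, and for MPP1 it was -0.40, -0.40 and -0.17. MPP1 measured 46.1, 26.6 and 23.8 CPM and rose by 1.55 ± 0.31 (adjusted p = 0.0281, edgeR). TES measured 114, 79.8 and 85.2 CPM, a log2 difference of 0.67 ± 0.19 (adjusted p = 0.135, edgeR, and 0.0243 with the replicate block). In all, 3 of the 4 members were called, against 1.57% of all genes tested, and with the block 4 of 4 against 8.95%. In every member the BA 24 h and t0 libraries did not overlap, which held for 18.4% of genes tested.

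The authors' deposited table gives log2 fold changes for BA at 24 h of -2.32 for PAPLN, -2.09 for DAZL, 1.41 for MPP1 and 0.61 for TES. The adjusted p-values in the authors' deposited table are 2.45e-07, 9.06e-04, 7.86e-04 and 0.208. Within replicates 1, 2 and 3 the log2(CPM + 1) difference had 1 sign for each gene: -2.28, -1.27 and -1.78 for PAPLN, -1.21, -0.54 and -0.66 for DAZL, and 0.77, 0.63 and 0.53 for TES. For MPP1 it was 1.72, 1.32 and 1.23. The edgeR call of MPP1 was lost in 7 of 15 fits that left out 1 library (adjusted p up to 0.191) and that of DAZL in 3 (up to 0.0622). With only the 6 libraries of these groups all 3 calls were lost, at adjusted p = 0.0670 for PAPLN, 0.0888 for DAZL and 0.119 for MPP1 (edgeR).

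Markers of other cell types moved with these changes. The summed level of the 5 primitive streak markers TBXT, EOMES, MIXL1, GSC and MESP1 was 1.09 to 1.25 CPM at t0, 55.9 to 961 CPM in BA 24 h and 107 to 1876 CPM in BA 48 h, where 5 of 5 reached at least 1 CPM. The 5 amnion and trophoblast markers TFAP2A, GATA3, ISL1, CDX2 and HAND1 summed to 0.224 to 1.17 CPM at t0 and 117 to 481 CPM in BA 48 h. The part of these cell types in the 4 genes' values was not tested, and in bulk RNA fewer cells of a type and less RNA per cell cannot be told apart. MPP1 is abundant in red cells, and of the 4 erythroid and endothelial markers HBB, TAL1, PECAM1 and CDH5, HBB had 0 counts in all BA 24 h libraries. The sum of those 4 was 1.97 to 3.68 CPM in BA 24 h and 1.22 to 5.28 CPM at t0, so the ranges overlapped. For TES, a gene of adherent cells, the 4 fibroblast markers COL1A1, COL1A2, POSTN and DCN summed to 147 to 267 CPM at t0, 439 to 622 CPM in BA 48 h with DCN at 0, and 261 to 409 CPM in E6 48 h. Their part was not tested.

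The hourly libraries from 6 to 42 h give a further view of the 2 media. All but BA 24 h replicate 1 were outside the choice of genes, and that library shared the fit of 15 libraries that gave the calls of the rule. Over these 7 hours PAPLN and DAZL were lower in BA than in E6, and MPP1 and TES were higher. PAPLN was lowest at 0.586, median 0.806 and highest at 2.28 CPM in BA, against 4.53, 7.74 and 33.0 CPM in E6. It was 9.81-fold lower in BA (log2 -3.29 ± 0.44 SE, adjusted p = 4.58e-05, edgeR with hour as a factor). DAZL was lowest at 0.0533, median 0.244 and highest at 0.490 CPM in BA and at 0.671, 1.04 and 3.17 CPM in E6. Its difference was 4.88-fold (log2 -2.29 ± 0.34, adjusted p = 1.08e-04, edgeR), from 1 to 9 reads per BA library and 11 to 37 per E6 library. No BA library of either gene reached the lowest E6 library, and the share of all genes for which this holds was not computed.

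MPP1 spanned 13.8 to 55.6 CPM in BA (median 33.9) and 6.59 to 11.1 CPM in E6 (median 9.66). It was 3.19-fold higher in BA (log2 1.67 ± 0.26, adjusted p = 1.41e-04, edgeR). TES spanned 91.4 to 114 CPM in BA (median 107) and 44.6 to 57.6 CPM in E6 (median 56.5). It was 1.96-fold higher (log2 0.97 ± 0.09, adjusted p = 7.11e-07, edgeR). TES has the smallest fold of the 4 and also the smallest error. All 4 members were called, and 26.3% of 18005 genes were (14.3% higher and 12% lower in BA). The sign was the same at all 7 hours in all 4, which held for 21.2% of genes. All 4 calls held under each of the 14 alternative settings, including those without the 3 libraries low in CDH1 and without the 24 h libraries. Hours are not replicate cultures, and the test sets the mean difference against its spread over hours.

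**Figure D3:**
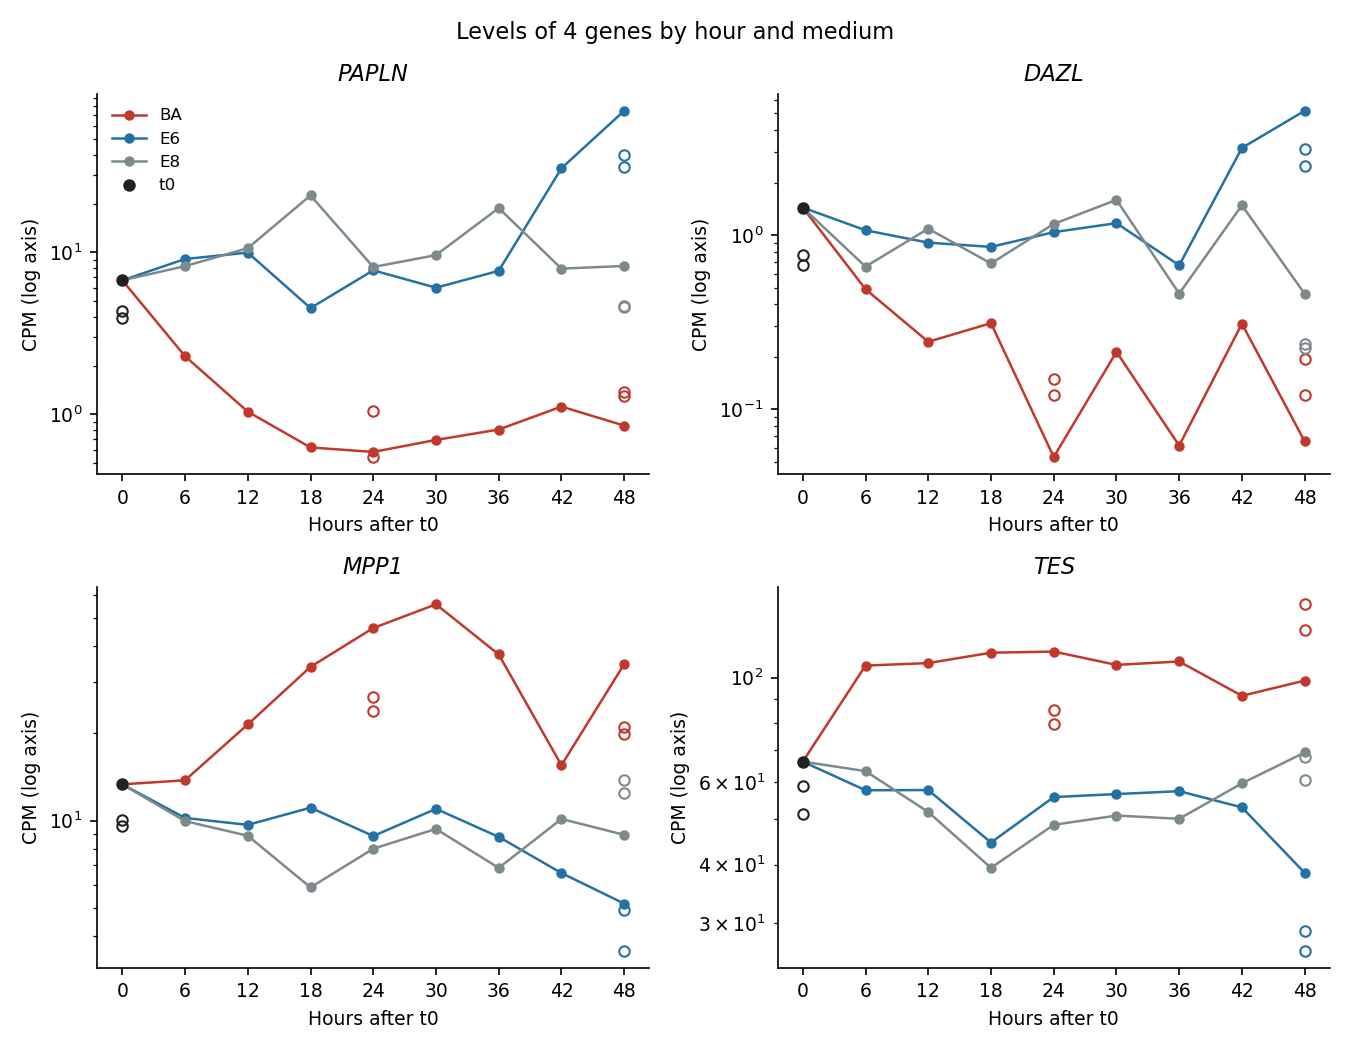
Level in CPM (log axis) against hours after t0 for each gene. Filled points joined by lines are replicate 1 or the single library of each hour, open circles are replicates 2 and 3, and colours mark BA, E6, E8 and t0. From 6 h on BA lies below E6 in PAPLN and DAZL and above it in MPP1 and TES, and at 42 h E6 lies above every E8 library in PAPLN and DAZL.

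PAPLN and TES differed between BA and E6 from the first time point. PAPLN was already 3.98-fold lower in BA than in E6 at 6 h (2.28 against 9.09 CPM) and 9.59-fold lower at 12 h. TES at 6 h measured 106 CPM in BA against 57.6 CPM in E6, and these BA libraries stayed between 91.4 and 114 CPM. From 24 to 48 h in BA it differed by -0.20, 0.66 and 0.74 on the log2(CPM + 1) scale in replicates 1, 2 and 3, so the 48 h level was above the 24 h level in replicates 2 and 3 only. MPP1 climbed more slowly, at 13.8, 21.4, 33.9, 46.1 and 55.6 CPM from 6 to 30 h, then measured 37.4 CPM at 36 h and 15.5 CPM at 42 h. The 42 h library is 1 of the 3 low in CDH1, and replicate 1 at 48 h was back at 34.6 CPM. DAZL was 2.18-fold lower at 6 h, on 9 and 21 reads.

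A divergence hour was defined as the first hour from which BA and E6 differed at least 2-fold (CPM + 1) at every later hour to 42 h, in the direction of the 48 h means. It was 6 h for PAPLN and 12 h for MPP1. For DAZL it was 42 h, and 24 h with 0.5 CPM added instead of 1. TES never kept a 2-fold gap, with BA to E6 ratios of 1.73 to 2.53. Of 18005 genes, 11.2% had such an hour, 1.17% at 6 h, and 2.96% were at least 2-fold apart at 6 h in either direction. Since the 48 h means set the direction and chose the genes, these hours are descriptions.

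**Figure D4:**
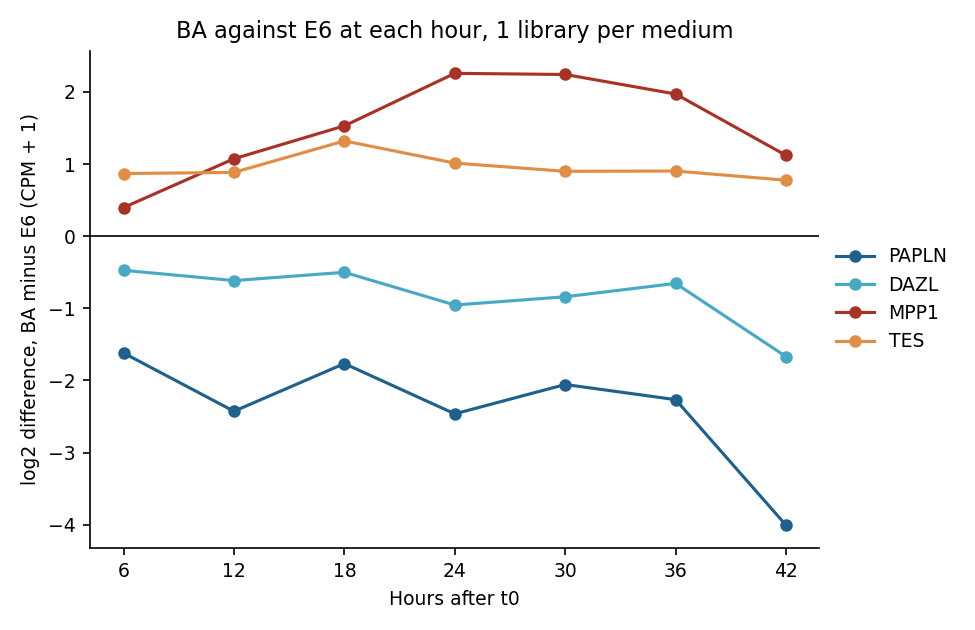
Difference of BA minus E6 on the log2(CPM + 1) scale at each hour from 6 to 42 h, 1 library per medium and hour, with a line per gene. PAPLN runs from -1.62 to -4.01 and DAZL from -0.47 to -1.67, while MPP1 peaks at 2.26 at 24 h and TES stays between 0.78 and 1.32.

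E6 and E8 overlapped over 6 to 36 h in PAPLN and DAZL. PAPLN was between 4.53 and 9.96 CPM in E6 from 6 to 36 h and 33.0 CPM at 42 h, and E8 ranged from 7.93 to 22.4 CPM over 6 to 42 h. The widest PAPLN gap between them was at 18 h, with 4.53 CPM in E6 and 22.4 CPM in an E8 library low in CDH1. That E6 18 h library is 1 of the 2 low on the replicate axis (0.652). It also gave the highest MPP1 and the lowest TES level in E6 over 6 to 42 h. DAZL lay between 0.671 and 1.17 CPM in E6 up to 36 h and at 3.17 CPM at 42 h, above all E8 libraries (0.462 to 1.59 CPM). In t0 replicate 1, of the same set of libraries, it measured 1.44 CPM. DAZL in E6 was thus below that t0 library up to 36 h and above it at 42 h only. PAPLN in that t0 library, at 6.72 CPM, lay within its E6 range of 6 to 36 h. MPP1 and TES there, at 13.3 and 66.3 CPM, lay above every hourly library of E6 and of E8. In E6, MPP1 measured 8.78 to 11.1 CPM up to 36 h and then 6.59 CPM. TES measured 44.6 to 57.6 CPM and then 53.0 CPM, so TES had not left its earlier range at 42 h. A TES level in E6 below that range is therefore seen at 48 h only, in 3 libraries of 26.3 to 38.4 CPM. The E6 library at 42 h is the only one of its hour and has the fewest reads of all 35.

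Over 6 to 42 h none of the 4 genes passed the test between E6 and E8. The log2 difference was -0.35 ± 0.39 for PAPLN, 0.23 ± 0.28 for DAZL, 0.14 ± 0.25 for MPP1 and 0.07 ± 0.09 for TES (adjusted p = 1 for each). This comparison called 0 of 18005 genes (0%) by edgeR, with 255 at an unadjusted p below 0.05, and 1 gene by DESeq2. The sign of the PAPLN value turned to 0.24 without the 3 libraries low in CDH1, of which E8 18 h and 36 h hold its highest E8 levels, 22.4 and 18.7 CPM. BA against E8 gave the same picture as BA against E6: PAPLN was 12.5-fold lower (adjusted p = 1.89e-05), DAZL 4.17-fold lower (3.34e-04), MPP1 3.50-fold higher (7.93e-05) and TES 2.06-fold higher (4.11e-07, edgeR), with 26.5% of genes called. Both comparisons share the BA libraries.

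The high PAPLN and DAZL levels in E6 came with a higher sum of the neuroectoderm markers, carried by FEZF1, a forebrain transcription factor gene. The summed level of PAX6, SOX1, FEZF1 and OTX1 was 3.85 to 6.04 CPM in E6 from 6 to 36 h, 13.4 CPM at 42 h and 35.4 to 45.7 CPM at 48 h, where 3 of the 4 reached 1 CPM. It was 1.92 to 7.46 CPM at t0, 1.199 to 4.32 CPM in E8 48 h and 1.44 to 1.59 CPM in BA 48 h, where SOX1 had 0 counts. FEZF1 measured 1.13 ± 0.172 CPM at t0 and 35.7 ± 7.77 CPM in E6 48 h, while PAX6 measured 0.582 ± 0.289 and 0.894 ± 0.933 CPM, SOX1 1.72 ± 2.98 and 1.37 ± 2.32 CPM and OTX1 0.362 ± 0.269 and 1.08 ± 0.455 CPM. The marker list's part in the PAPLN and DAZL values was not tested. The sum of the germ cell markers was not high where DAZL was: DDX4, NANOS3, DPPA3 and PRDM1 summed to 0.562 to 1.98 CPM in E6 48 h and 1.06 to 1.78 CPM at t0, and DDX4 and NANOS3 had 0 counts in E6 42 h. They summed to 4.06 to 99.1 CPM in BA 48 h, where DAZL was at its low level. PRDM1 carried that sum, at 33.9 ± 54.8 CPM, while DPPA3 was lower in BA 48 h (0.0318 ± 0.0325 CPM) than at t0 (0.250 ± 0.157 CPM).

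At 48 h in E8, a medium that the choice did not compare, no member was called against t0, with 0.139% of genes called by edgeR. These E8 libraries shared t0 and the fit of 15 libraries with the comparisons of the rule. The log2 difference was 0.22 ± 0.37 for PAPLN (adjusted p = 0.893), 0.12 ± 0.30 for MPP1 (0.948) and 0.18 ± 0.19 for TES (0.776, edgeR). DAZL was the exception in size, at -1.65 ± 0.48 (adjusted p = 0.136, edgeR), and its E8 48 h libraries did not overlap t0, as in 18.6% of genes. With the replicate block the DAZL difference was called (adjusted p = 0.0111, 25.6% of genes called), and with DESeq2 it had an adjusted p of 0.0408. In the authors' deposited table it is -1.25 with an adjusted p of 0.117. E8 hourly libraries of DAZL at 6 to 42 h ranged from 0.462 to 1.59 CPM. The lowest, E8 36 h at 0.462 CPM from 7 reads, was level with E8 48 h replicate 1 at 0.461 CPM from 8 reads. The E8 48 h replicates 2 and 3, at 0.225 and 0.238 CPM, belong to the set that stood apart from the hourly libraries.

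Linear trends over 6 to 42 h did not pass the edgeR test for any member. In BA, where 14.4% of genes were called, the slope per 24 h was -0.69 for PAPLN, -0.80 for DAZL, 0.59 for MPP1 and -0.08 for TES on the log2 scale (adjusted p = 0.582, 0.552, 0.435 and 0.811). MPP1 was called, at 1.40 per 24 h (adjusted p = 0.00378, edgeR), when the 3 libraries low in CDH1 were left out. In E6 the slope was 0.96 for PAPLN (unadjusted p = 0.0355, adjusted 0.980) and 0.83 for DAZL (0.0690 and 0.980), and 0.00555% of genes were called. Both E6 slopes rest on the 42 h libraries and were -0.33 and -0.17 without them. The BA slope minus the E6 slope was -1.65 ± 0.75 for PAPLN and -1.63 ± 0.81 for DAZL (adjusted p = 0.306 and 0.375, edgeR), where 4.65% of genes were called. For MPP1 it was 0.87 (adjusted p = 0.551), and 1.68 (0.0109, edgeR) without the 3 libraries low in CDH1. With all 21 libraries a steady trend was thus not detectable in the 4 genes, while the difference in level over the same hours was.

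Across libraries the 4 genes formed 2 opposed pairs. Over the 25 libraries that are replicate 1 or single, Pearson's r of log2(CPM + 1) was 0.835 for PAPLN with DAZL and 0.889 for MPP1 with TES. Between the pairs it was -0.902 for PAPLN with MPP1, -0.897 for PAPLN with TES, -0.710 for DAZL with MPP1 and -0.729 for DAZL with TES. Over all 35 libraries the same 6 values ran from -0.911 to 0.872. The libraries share media and hours and include BA and E6 at 48 h, so these values are a description.

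Among 11567 genes with a mean of at least 5 CPM over those 25 libraries, the 5 most like PAPLN were IRX2 (r = 0.963), RABGAP1L (0.947), C1orf21 (0.935), GDF11 (0.928) and RGMA (0.922). IRX2 is an Iroquois homeobox gene, GDF11 a ligand of the TGF-beta superfamily and RGMA a co-receptor for BMPs. For DAZL they were AKIRIN1 (0.908), UGP2 (0.874), RABGAP1L (0.865), FRY (0.862) and C6orf141 (0.852), so RABGAP1L is on both lists. Among the 5 most like MPP1 were SLC39A8 (0.961), a zinc and manganese transporter gene, PLBD1 (0.950), CLN8 (0.949) and TMEM154 (0.947). TES was most like LDLRAD4 (0.950), whose product restrains TGF-beta signalling, then DTNA (0.947), FRMD6 (0.944), TFPI (0.943) and PDE8A (0.942). Over all 35 libraries, 2 of 5 remained for PAPLN, 3 of 5 for DAZL, 2 of 5 for MPP1 and 0 of 5 for TES, so these names depend on the libraries used. Over 35 libraries PAPLN itself was the gene most like DAZL (0.872), and MPP1 the gene most opposed to PAPLN (-0.911).

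Genes related to each member were counted against the 3.52% of all genes called between BA and E6 at 48 h, or 22.1% with the replicate block. Of 8 tested members of the membrane-associated guanylate kinase list of MPP1 (9 listed), 0 were called between BA and E6 at 48 h by edgeR, and with the block 3 were higher and 1 lower in BA. The median log2 difference was 0.19 against 0.04 over all genes. The most abundant, DLG5 and MPP6, measured 258 and 83.5 CPM in BA and 139 and 73.4 CPM in E6 (means, adjusted p = 0.465 and 0.959, edgeR). Over 6 to 42 h, MPP7, DLG5 and MPP5 were higher in BA by 0.75, 0.75 and 0.42 on the log2 scale, and MPP3 and MPP2 lower by 0.53 and 0.40 (edgeR). Of all genes, 14.3% were called higher and 12% lower in BA over these hours. The call was lost in 8 of 14 alternatives for MPP2, 4 for MPP3 and 1 for MPP5 (log2 0.22, adjusted p = 0.521, with BA 24 h replicates 2 and 3 added) and in none for MPP7 and DLG5. These 5 were named after their values were seen, and none reached the 1.67 of MPP1.

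Of 16 tested papilin-like, ADAMTS-like and basement membrane genes (17 listed), 1 was higher and 2 were lower in BA than in E6 at 48 h (median 0.21). NID2, a nidogen that joins laminin to collagen in basement membranes, shared the E6 rise of PAPLN: it rose by 1.99 ± 0.42 on the log2 scale in E6, from 5.89 ± 3.02 to 22.8 ± 8.99 CPM (adjusted p = 0.0276, edgeR), and was lower in BA than in E6 by 2.30 ± 0.43 (0.0120). Unlike PAPLN it was not called in BA 48 h against t0, at 4.58 ± 1.03 CPM (log2 -0.31 ± 0.41, adjusted p = 0.836, edgeR). THSD4, an ADAMTS-like gene of microfibrils, rose in E6 from 10.1 ± 1.86 to 21.4 ± 1.07 CPM (adjusted p = 0.0182, edgeR) and was lower in BA by 0.91 (0.0318). SPARC, a collagen-binding matrix protein gene, was higher in BA, at 933 ± 442 CPM against 327 ± 12.1 CPM (adjusted p = 0.00809, edgeR). ADAMTSL3 rose in BA from 1.01 ± 0.0884 to 2.58 ± 0.885 CPM (adjusted p = 0.0449, edgeR). Over 6 to 42 h, 4 of the 16 were higher and 4 lower in BA, against 14.3% and 12% of all genes.

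Of 20 tested PET-LIM and focal adhesion genes of the TES list, 0 were called between BA and E6 at 48 h by edgeR, and 5 were higher and 2 lower with the block (median 0.20). PRICKLE3, like TES a PET and LIM domain gene, rose in BA from 7.99 ± 1.71 to 20.4 ± 5.40 CPM (adjusted p = 0.0441, edgeR). Its relative PRICKLE2 rose in E6 from 3.44 ± 0.758 to 8.26 ± 0.913 CPM (adjusted p = 0.0486, edgeR), the opposite medium. Over 6 to 42 h 5 of the 20 were higher and 5 lower in BA, against 14.3% and 12% of all genes.

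Of 20 listed germ cell genes and partners of DAZL, 11 passed the filter on low counts and 3 were higher in BA than in E6 at 48 h, none lower (median 0.19). TFAP2C, a factor of germ cell and amnion precursors, measured 1.16 ± 0.761 CPM at t0, 39.0 ± 10.6 CPM in BA and 3.97 ± 1.78 CPM in E6 (BA with E6, adjusted p = 0.0189, edgeR). NANOS3, needed for germ cell survival, measured 2.19 ± 0.554 CPM in BA and 0.181 ± 0.117 CPM in E6 (0.0303), and SOX17, shared by endoderm and germ cell precursors, 64.1 ± 99.6 and 0.0187 ± 0.0324 CPM (0.0494, edgeR). KIT, the stem cell factor receptor gene, rose in both media, to 37.3 ± 17.5 CPM in BA and 35.7 ± 2.99 CPM in E6 from 12.8 ± 1.81 CPM (adjusted p = 0.00789 and 0.0199, edgeR). With the block 4 were higher and 1 was lower in BA than in E6. Over 6 to 42 h PRDM1, SOX17 and TFAP2C were higher and PRDM14 and NANOS1 lower in BA (edgeR), 5 of 9 tested, named after their values were seen. Over the same hours 14.3% of all genes were called higher and 12% lower in BA.

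Many of the 48 h calls of these lists were lost in fits with fewer libraries. Of 15 fits that left out 1 library, the call was lost in 12 for ADAMTSL3, 11 for PRICKLE3 and 11 for PRICKLE2. Between the media it was lost in 12 for SOX17, 6 for THSD4, 5 for NANOS3, 3 for TFAP2C and 1 for SPARC (E6 replicate 3, adjusted p = 0.0512), and in none for NID2 (adjusted p up to 0.0481, edgeR), whose rise in E6 was lost in 4. With only the libraries of the groups compared, none of these calls between BA and E6 at 48 h held (adjusted p = 0.0691 to 0.182, edgeR).

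Neighbouring genes on the chromosome were compared next, taking the 2 nearest tested genes on each side whose symbol is in GENCODE release 29. Around PAPLN, NUMB, which begins 0.5 kb beyond its end, RBM25 and HEATR4 did not pass the edgeR test in BA 48 h or E6 48 h against t0 or between BA and E6. With the replicate block, which called 28.5%, 35% and 22.1% of all genes in these comparisons, RBM25 was called in BA (adjusted p = 0.0104) and E6 (0.0191) and HEATR4 in E6 (0.0281, edgeR). NUMB, a regulator of Notch, measured 72.0 ± 1.003 CPM at t0, 83.2 ± 12.8 CPM in BA 48 h and 79.4 ± 0.748 CPM in E6 48 h. PLCL2, a phospholipase C-like gene 132.3 kb from DAZL, rose in E6 as DAZL was high there, from 8.90 ± 1.89 to 40.1 ± 9.67 CPM (log2 2.17, adjusted p = 0.00539, edgeR). In BA 48 h it stayed at 8.88 ± 1.58 CPM, and BA minus E6 was -2.13 on the log2 scale at 48 h (adjusted p = 0.00181) and -0.74 over 6 to 42 h (0.0101, edgeR). The call between the media at 48 h held in 15 of 15 fits that left out 1 library, and that against t0 was lost without t0 replicate 3 (adjusted p = 0.0569, edgeR). With only the libraries of the groups compared both were lost (0.0535 and 0.0765), and the hourly call was lost with the 3 late hours only (0.139, edgeR). Across all 35 libraries it correlated with DAZL at r = 0.864, second after PAPLN. Of the other genes near DAZL, OXNAD1 fell in BA 48 h by 0.63 (adjusted p = 0.0439, edgeR), a call lost in 15 of 20 alternatives, 12 of them fits that left out 1 library. Without the block RFTN1 and TBC1D5 were not called.

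GAB3, a signalling adaptor gene 27.1 kb from MPP1, was higher in BA than in E6, as MPP1 was. It measured 0.377 ± 0.135 CPM at t0, 2.37 ± 0.670 CPM in BA 24 h, 2.16 ± 1.42 CPM in BA 48 h and 0.208 ± 0.0435 CPM in E6 48 h. Over 6 to 42 h it was higher in BA than in E6 by 2.77 on the log2 scale (adjusted p = 8.32e-07), and at 48 h by 3.33 (0.0434, edgeR). Against t0 it was not called in BA 24 h (adjusted p = 0.155), BA 48 h (0.0766) or E6 48 h (0.680, edgeR), and with the block both BA differences were (0.0234 and 0.0148). The hourly call held in 14 of 14 alternatives, and the one at 48 h was lost in 12 of 15 fits that left out 1 library. DKC1, which lies between them 1 kb from MPP1 and encodes a protein of ribosomal RNA modification, fell in E6 by 0.79 (adjusted p = 0.0167, a call lost in 7 of 20 alternatives) and was not called between the media over the hours (log2 0.03, adjusted p = 0.841, edgeR). F8 and F8A1 on the other side were not called, except F8 with the block in BA 48 h against t0 (adjusted p = 0.0389) and against E6 (0.0346, edgeR). Around TES, CAV2 (28.6 kb away), a caveolin gene, was higher in BA over 6 to 42 h by 1.48 (adjusted p = 5.24e-04), and so were MDFIC by 1.52 (4.55e-07) and FOXP2 by 2.17 (9.82e-06, edgeR), at 1191.3 and 1516.7 kb. CAV1 was not called over the hours (log2 0.70, adjusted p = 0.0766, edgeR). At 48 h none of these 4 was called without the block. With it CAV1 was called in E6 against t0 (log2 -2.79, adjusted p = 4.21e-04) and between BA and E6 (0.00262, edgeR), and CAV2, MDFIC and FOXP2 between BA and E6 (0.0103, 4.41e-05 and 0.0141). Of the 15 neighbours described, 6 were called over the hours, namely GAB3, PLCL2, OXNAD1, CAV2, MDFIC and FOXP2, against 26.3% of all genes.

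**Figure D5:**
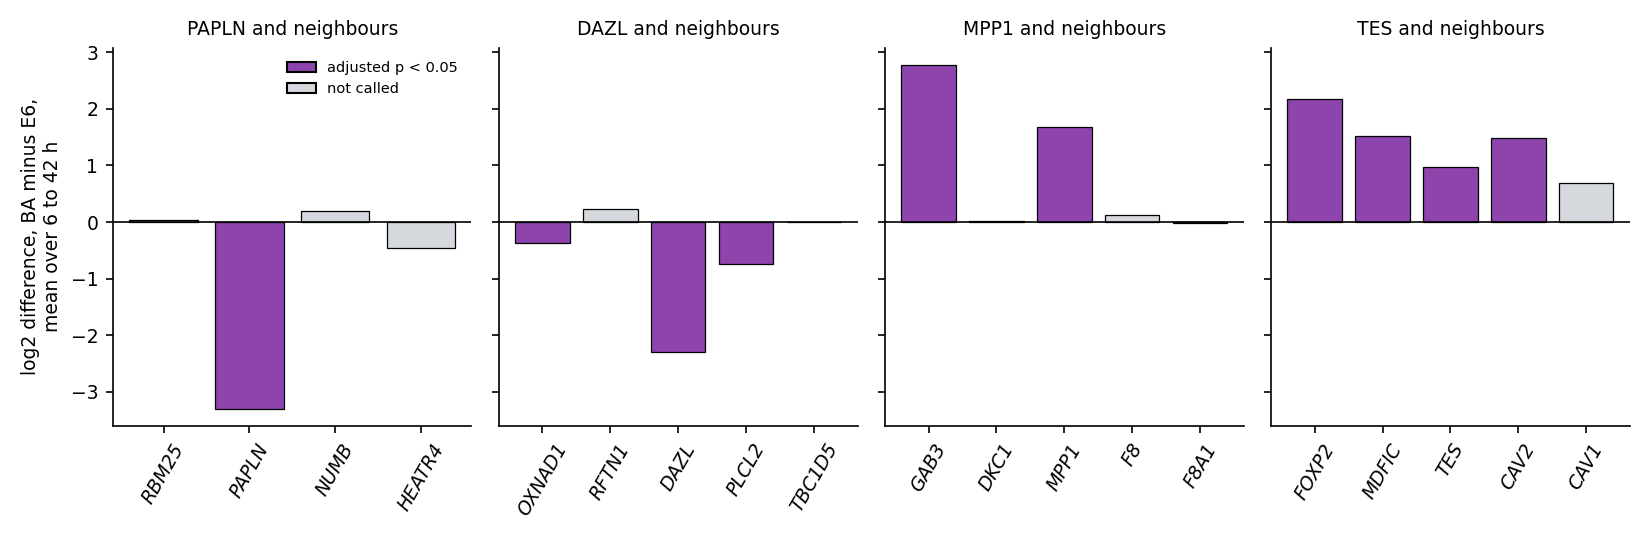
Log2 difference of BA minus E6, fitted over 6 to 42 h, for each of the 4 genes and the neighbours described for it, in chromosome order (3 for PAPLN and 4 for each of the others). Purple bars have an edgeR adjusted p below 0.05, and PAPLN is the only coloured bar in its panel while GAB3 beside MPP1 reaches 2.77.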

How the data were processed

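The deposited table gives unnormalized read counts for 58581 genes in each of 35 libraries, under GENCODE release 23 symbols per the file headers. Per the submitters' processing notes, reads were aligned to hg38, counted with featureCounts and tested with DESeq2, without versions. A second table holds the authors' deposited log2 fold changes, p-values and adjusted p-values for 4 groups, whose reference its header does not name. Library totals were 11793453 to 37191969 counts, which limits precision for DAZL above all.

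Counts were normalized with TMM and tested in R 4.3.3 with edgeR 4.0.16 (quasi-likelihood F-test, limma 3.58.1) with Benjamini-Hochberg adjustment over all genes that passed the filter, calls being at 0.05. One model of group, with no block, covered the 15 replicated libraries (21554 genes). Another, with hour as a factor plus medium, covered 21 hourly libraries (18005 genes: at least 10 reads at the median depth in 3 libraries, and 15 in all), and a further one fitted a slope of hour in each medium. BA with t0, E6 with t0 and BA with E6 at 48 h chose the members, so they are not tested there. The members, gene lists and tests were chosen with earlier results of these data known. Named genes are the members, per member the 5 genes with the highest correlation and the 2 nearest tested genes on each side, per list up to 4 genes called at 48 h (or the 2 most abundant), and the other genes that meet the opposite rule. A few genes that these rules or the marker lists name are not reported here.

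Deviations from group means of same-numbered libraries correlated at 0.735 to 0.917 for replicate 1, 0.678 to 0.831 for replicate 2 and 0.607 to 0.770 for replicate 3. Replicates 2 and 3 also correlated with each other (0.592 to 0.790). Pairing by each number therefore cannot be told apart from the split of replicate 1 from replicates 2 and 3. Because same-numbered libraries correlated, the fit with the replicate number as a block was run as well. No pair of replicates agreed within sampling noise. Positions and exon lengths came from GENCODE release 29, which held 81.2% of tested symbols. Promoters came from RefSeq GRCh38.p14, with 4 of 4 members matched. The scripts were tested on simulated data. Alternatives were DESeq2 1.42.0, RLE factors, no filter, fewer libraries, each library or hour left out, and, chosen after seeing the data, leaving out 3 hourly libraries low in CDH1 or 2 low on the replicate axis.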

Additional observations from a re-analysis of the deposited data

How the results depend on the processing

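The 4 calls of BA with E6 over 6 to 42 h held in all 14 alternatives. The replicate block gave 1929 calls for BA 24 h with t0, 5510 for E8 48 h with t0, 6153 for BA 48 h with t0, 7553 for E6 48 h with t0, 4760 for BA with E6 at 48 h and 209 opposite genes, against 339, 30, 1373, 836, 759 and 6 without it. The block also called TES in BA 24 h and DAZL in E8 48 h and changed no other member's call. DESeq2 gave 801, 1232, 2444, 2336, 1562 and 36 in the same order, 1 for E6 with E8 over the hours, and 8 and 6 for the slopes in E6 and E8. With only the libraries of the groups compared, the counts were 114, 0, 351, 3 and 76. Without the filter on low counts they were 1 for E8 48 h, 234 for E6 48 h, 1 opposite gene, and 4 and 4 for the slopes in E6 and E8. Leaving out 1 library gave 84 to 564 calls for BA 24 h, 0 to 624 for E8 48 h, 376 to 1528 for BA 48 h, 48 to 1623 for E6 48 h, 257 to 871 for BA with E6 and 1 to 22 opposite genes. Leaving out 1 hour gave 1590 to 3107 for the slope in BA, 0 to 5 in E6, 0 to 6 in E8 and 372 to 1066 for the slope difference. Adding BA 24 h replicates 2 and 3 gave 1512 slopes in BA and 343 differences of slope. Leaving out the libraries low in CDH1 gave 6 and 2 slopes in E6 and E8, and leaving out those low on the replicate axis 3985, 3, 5 and 1402 for BA, E6, E8 and the difference. The cause of these shifts was not tested.

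Signs turned only in values that were not called, in the results and alternatives given here. For E6 with E8 over the hours, PAPLN was 0.017 and MPP1 -0.062 with the 3 late hours only, and 0.24 and -0.030 without the libraries low in CDH1. The TES slopes in E6 and E8 were -0.0074 and -0.0041 with RLE factors, -0.024 and -0.0061 without the filter, -0.0065 and -0.0061 with DESeq2, -0.011 and -0.0081 with BA 24 h replicates 2 and 3, and -0.046 and -0.00077 without the libraries low on the replicate axis. Without the libraries low in CDH1, the TES slope was 0.020 in BA, -0.024 in E8 and 0.018 for the difference, and the PAPLN slope in E8 was -0.089. Leaving out 1 library, E8 48 h with t0 ran from -0.090 to 0.53 for PAPLN and from -0.026 to 0.30 for MPP1. Leaving out 1 hour, slopes per 24 h ran from -1.28 to 0.20 for PAPLN, -0.062 to 1.40 for MPP1 and -0.16 to 0.016 for TES in BA. In E6 they ran from -0.33 to 1.33 for PAPLN, -0.17 to 1.17 for DAZL and -0.050 to 0.027 for TES. In E8 they ran from -0.33 to 0.47 for PAPLN, -0.22 to 0.20 for MPP1 and -0.17 to 0.22 for TES, and the slope difference of TES from -0.18 to 0.0068.

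The depth limits DAZL, with 1 to 9 reads per BA library. Each hour has 1 library per medium, so no hour by itself has a test, and the 42 h library decides the E6 slopes.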
